A study of Mus musculus with 3 samples.

Results

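The deposited expression table of sorted mouse skin mast cells holds 3064 rows that carry an identifier beginning with BGI_novel and no gene symbol. These unnamed transcribed regions were taken by that identifier alone, and they make up 14.8% of the 20677 rows. The other 17613 rows are genes with a symbol. All 3 libraries came from mice of the strain background C57BL/6xCD1xFVB, 1 week after birth, in which cells that had carried an active Cre recombinase made the yellow fluorescent protein EYFP. In the Csf1rCre/EYFP line, 4'OHT, the active form of tamoxifen that switches on an inducible Cre, was given at embryonic day 8.5, and the sorted cells gave the library labelled early EMP (erythro-myeloid progenitor). In the Runx1Cre/EYFP line, 4'OHT at embryonic day 8.5 yielded the late EMP library, and at embryonic day 9.5 the one labelled fetal HSC (haematopoietic stem cell). The label marks cells that used the driver gene at the time of the pulse and their descendants. How many animals were pooled for a library is not stated in the labels.

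With 1 library for each origin, nothing below is checked by replicates and no test was made. The early EMP library came from another driver line than the rest, and there line and origin cannot be told apart. Levels are in FPKM, in which the fragments of a transcript are divided by its length and by the library's total. The length of the regions is not in the table, so the number of fragments behind a value was not derived here and no counting interval is given.

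Genomes give rise to much RNA outside the genes that carry names. Such RNA includes long noncoding RNAs, transcripts made at enhancers, read-through beyond the ends of known genes, unlisted ends or exons of known genes and copies of mobile elements. When sequencing reads are joined into transcripts, stretches that touch no listed gene receive a serial number in place of a name. Long noncoding RNAs are known for low levels and for being made in fewer cell types than coding genes.

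All 8 mast cell markers read here were present in each library, at 38.8 FPKM or more for the lowest of them. The macrophage markers summed to 44.4 FPKM in early EMP, 32.3 in late EMP and 9.53 in fetal HSC mast cells. The erythroid markers summed to 186, 15.0 and 13.7 FPKM in the same order, and 4 markers of cell division to 16.1, 86.8 and 101 FPKM. Markers of keratinocytes summed to at most 2.29 FPKM and those of fibroblasts to at most 5.06 FPKM in any library. Melanocyte markers summed to 1.20, 12.3 and 35.9 FPKM and T cell markers to 15.3, 5.52 and 13.0 FPKM. Single markers were listed at 0 in 1 library each, namely Krt14, Dcn and Mlana in early EMP, Cd3e in late EMP and Hbb-bt in fetal HSC. The part of these other cells in the results below was not tested.

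Most unnamed regions were low in every library, and more of them were read in the early EMP library than in the others. The highest of a region's 3 levels had a median of 1.59 FPKM, with 25% of regions at or below 1.29 and 25% at or above 2.27. For 1912 of the 3064 regions, or 62.4%, the highest level lay from 1 to under 2 FPKM. It stayed under 1 FPKM in 181 regions and reached 10 FPKM in 131, or 4.28%. The sources used here do not say how the regions were found or which libraries were read for it, and the part of that choice in the counts was not tested.

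The median level of the regions was 1.37 FPKM in early EMP, 0.48 in late EMP and 0.03 in fetal HSC mast cells. At 1 FPKM or more there were 2130 regions in early EMP, 1074 in late EMP and 765 in fetal HSC mast cells. A listed value of 0 was found for 448, 645 and 1444 regions in that order. The early EMP library had 1376 regions, or 44.9%, from 1 to under 2 FPKM, against 621 in the late EMP and 424 in the fetal HSC library. The high end differed less, with 104, 101 and 76 regions at 10 FPKM or more and 22, 20 and 20 regions at 50 FPKM or more.

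**Figure D1:**
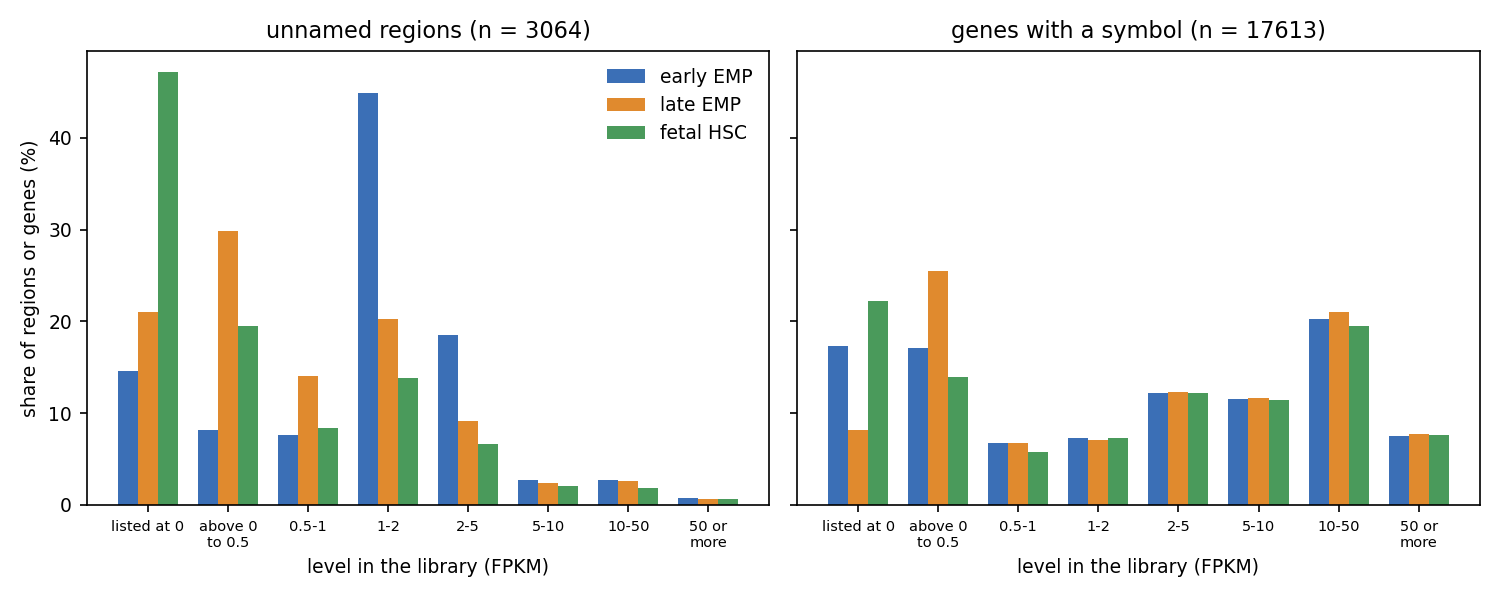
Share of features (%, vertical axis) in each band of FPKM (horizontal axis; a band includes its lower bound), for the 3064 unnamed regions (left) and the 17613 genes with a symbol (right), 1 bar per library. Of the regions, 44.9% lie from 1 to under 2 FPKM in the early EMP library and 47.1% are listed at 0 in the fetal HSC library, while the bands of named genes above 0.5 FPKM nearly coincide between libraries.

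Genes with a symbol did not follow the regions in this order. Their medians were 2.28 FPKM in early EMP, 2.54 in late EMP and 2.15 in fetal HSC mast cells. The late EMP library, not the early one, had the fewest named genes listed at 0, with 8.14% against 17.4% in the early EMP and 22.2% in the fetal HSC library. Among the regions these shares were 21.1%, 14.6% and 47.1%. The 1113 genes that RefSeq classes as long noncoding RNA had medians of 0.19, 0.26 and 0.04 FPKM for early EMP, late EMP and fetal HSC. These are below the regions' medians in the early and late EMP libraries, but the sets are not alike. Under 1 FPKM in every library were 710 of these genes and 6084 of the 17613 named genes, against 181 of the 3064 regions. The part of this in the medians was not tested. The long noncoding RNA genes too were listed at 0 least often in the late EMP library, with 16.7% against 33.4% and 46.9% in the early EMP and fetal HSC libraries. The 1725 predicted genes, which carry provisional symbols, gave 15.7% in the late EMP library against 30.4% and 43.9%.

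The regions took a small part of each library. Their FPKM summed to 10417 in early EMP, 8580 in late EMP and 6979 in fetal HSC mast cells, which is 1.63%, 1.40% and 1.09% of all summed FPKM. A few regions carried much of this. The 10 highest regions of each library held 33.1%, 39.2% and 45.6% of the sum, and 50% of the sum was reached with 49, 24 and 13 regions. Regions under 10 FPKM summed to 4415 FPKM in early EMP, 2768 in late EMP and 1883 in fetal HSC mast cells.

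Few regions were shared between libraries at 1 FPKM. Of the 2883 regions that reached this level in at least 1 library, 361, or 12.5%, did so in all 3, while 1486, or 51.5%, did so in the early EMP library only. The late EMP library alone held 418 and the fetal HSC library alone 254. The early and late EMP libraries shared 214 that the fetal HSC library lacked at this level. The late EMP and fetal HSC libraries, made with the same driver line, shared 81 that the early EMP library lacked. Among named genes 80.6% of 11529 reached 1 FPKM in all 3 libraries and 4.56% in the early EMP library only. The RefSeq long noncoding RNA genes lay between at this level, with 42.4% of 403 in all 3 libraries and 19.6% in the early EMP library only. At 5 FPKM they did not lie between for the early EMP library. Of 246 regions 17.5% then reached the level in that library only, against 22.0% of 118 long noncoding RNA genes. In all 3 libraries the shares at 5 FPKM were 38.6% and 53.4%. The classes compared at 1 FPKM differ in level. The highest level lay from 1 to under 2 FPKM in 1912 of the 2883 regions and in 1478 of the 11529 named genes. It did so in 159 of the 403 long noncoding RNA genes. A small drop puts such a feature under 1 FPKM, and the part of this in the shares was not tested.

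**Figure D2:**
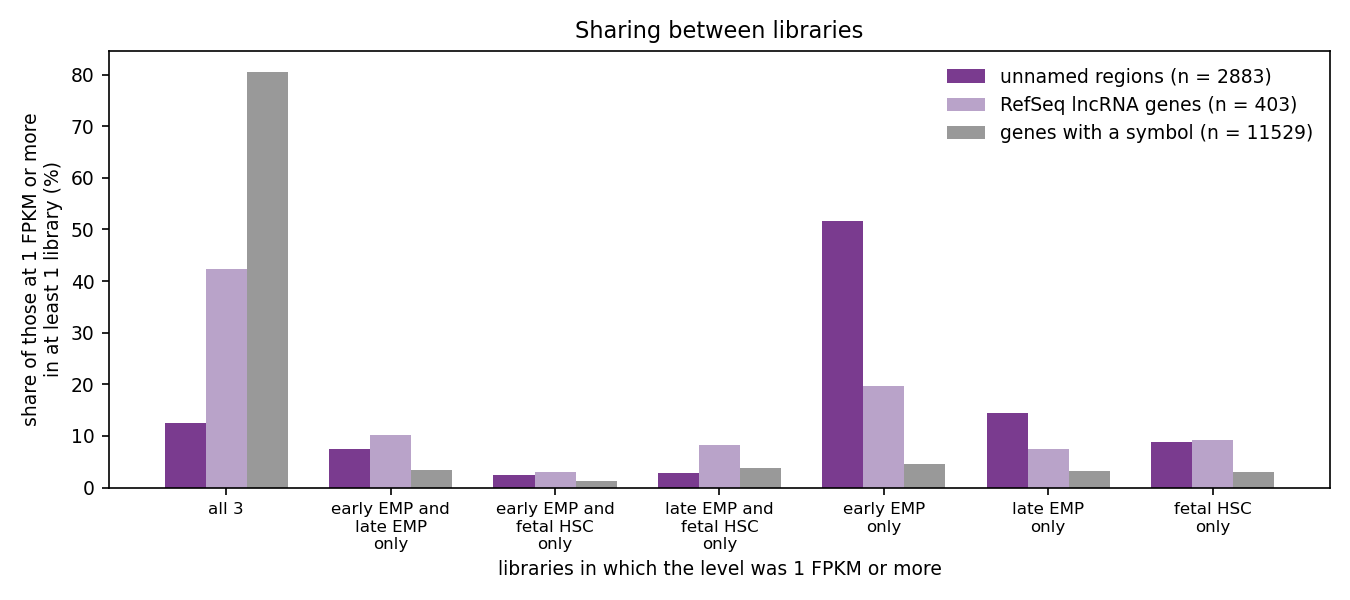
Share (%, vertical axis) of the features at 1 FPKM or more in at least 1 library that reached this level in the libraries named on the horizontal axis, for unnamed regions, RefSeq long noncoding RNA genes and all genes with a symbol. The regions have 51.5% in the early EMP library only and 12.5% in all 3, where the named genes have 80.6% in all 3. The classes differ in level, since the highest level is under 2 FPKM in 1912 of these regions but 1478 of these named genes.

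A region under 1 FPKM was often not absent. With any value above 0 counted, 1280 regions, or 41.8%, were read in all 3 libraries, and 454, 230 and 69 were read in the early EMP, late EMP or fetal HSC library alone. The early EMP and late EMP libraries then shared 760 regions listed at 0 in the fetal HSC library.

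The library in which a region was highest varied with its level. Over all regions the early EMP library was highest in 1917, or 62.6%, against 34.0% of named genes. Among the 1912 regions whose highest level lay from 1 to under 2 FPKM this share was 66.5%. Among the 101 regions from 10 to under 50 FPKM it was 39.6%, and among the 30 regions at 50 FPKM or more it was 33.3%. Named genes in these bands gave 37.9%, 35.0% and 30.4%. RefSeq long noncoding RNA genes gave 47.8%, 42.6% and 55.6%, so in the upper bands their shares were above those of the regions. The evenness between libraries rose along the same bands. The lowest of the 3 levels was at least 50% of the highest in 3.19% of regions from 1 to under 2 FPKM, in 34.7% from 10 to under 50 FPKM and in 53.3% at 50 FPKM or more. Named genes in the same bands gave 20.0%, 82.0% and 88.4%, and RefSeq long noncoding RNA genes 15.7%, 55.3% and 55.6%, the last over 9 genes.

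Late EMP over early EMP asks how the regions differ between mast cells marked by the later and the earlier wave of progenitors. Differences are log2 of the ratio of (FPKM + 1), which understates the change of low features, and features at least 2-fold apart on that scale were counted. With this addition of 1 FPKM no feature under 1 FPKM in both libraries can pass, so no filter was used. Of the 3064 regions 377, or 12.3%, were at least 2-fold higher in the late EMP library and 1069, or 34.9%, at least 2-fold lower. Over all 20677 rows these shares were 6.03% and 7.53%. Over genes with a symbol alone they were 4.94% and 2.78%. The median difference was -0.65 over the regions, 0.06 over genes with a symbol and 0.04 over RefSeq long noncoding RNA genes. Regions made up 30.2% of all rows counted as higher and 68.6% of those counted as lower.

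The split lay in the low regions. For a mean of the 3 libraries under 1 FPKM, 40.5% of 2211 regions were lower and 13.7% higher, with a median of -0.82. Of 7145 named genes in this band 1.97% were lower and 2.14% higher, but the classes are not alike there. Features under 1 FPKM in every library cannot be called, and these are 181 of the regions but 6084 of the named genes. A low mean in a region thus mostly goes with uneven levels, and how far this sets the shares was not tested. From 10 to under 50 FPKM, 9 of 75 regions were lower and 5 higher, with a median of 0.09. Of 3606 named genes in that band 1.80% were lower and 4.49% higher. At 50 FPKM or more 2 of 21 regions were lower and none higher, with a median of 0.04. There 1.18% of 1354 named genes were lower and 2.95% higher.

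Fetal HSC over early EMP compares the pulse at day 9.5 in the Runx1Cre/EYFP line with the Csf1rCre/EYFP line. Here 250 regions, or 8.16%, passed 2-fold upward in the fetal HSC library and 1577, or 51.5%, passed it downward, where all rows gave 5.71% and 12.4%. Genes with a symbol alone gave 5.29% higher and 5.63% lower, and regions made up 61.4% of all rows counted as lower. The median difference was -1.04 over the regions and 0.00 over genes with a symbol. The lower calls reached further up in level than in the comparison of the 2 EMP libraries. Of the 75 regions with a mean from 10 to under 50 FPKM, 28 were lower and 9 higher, with a median of -0.41. Of 3606 named genes in that band 3.91% were lower and 4.71% higher. Of the 21 regions at 50 FPKM or more, 3 were lower and 2 higher, with a median of 0.03. There 2.36% of 1354 named genes were lower and 4.43% higher.

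Fetal HSC over late EMP holds the driver line fixed. In it 183 regions, or 5.97%, lay above 2-fold in the fetal HSC library and 573, or 18.7%, below it by as much, against 2.41% and 5.76% of all rows. Genes with a symbol alone gave 1.79% higher and 3.51% lower, and regions made up 48.1% of all rows counted as lower. The median difference was -0.17 over the regions and -0.08 over genes with a symbol. The share of regions called lower was 17.1% for a mean under 1 FPKM, 39.1% of 64 regions from 5 to under 10 FPKM and 33.3% of 75 regions from 10 to under 50 FPKM. Named genes called lower were 4.49% of 2049 from 5 to under 10 FPKM and 2.36% of 3606 from 10 to under 50 FPKM. Under 1 FPKM, where the classes are not alike, 1.82% of 7145 named genes were lower. At 50 FPKM or more 1 of 21 regions was lower and 2 were higher, with a median of -0.05. There 1.55% of 1354 named genes were lower and 0.886% higher. The 3 comparisons share libraries with each other, so a low or high library enters 2 of them.

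**Figure D3:**
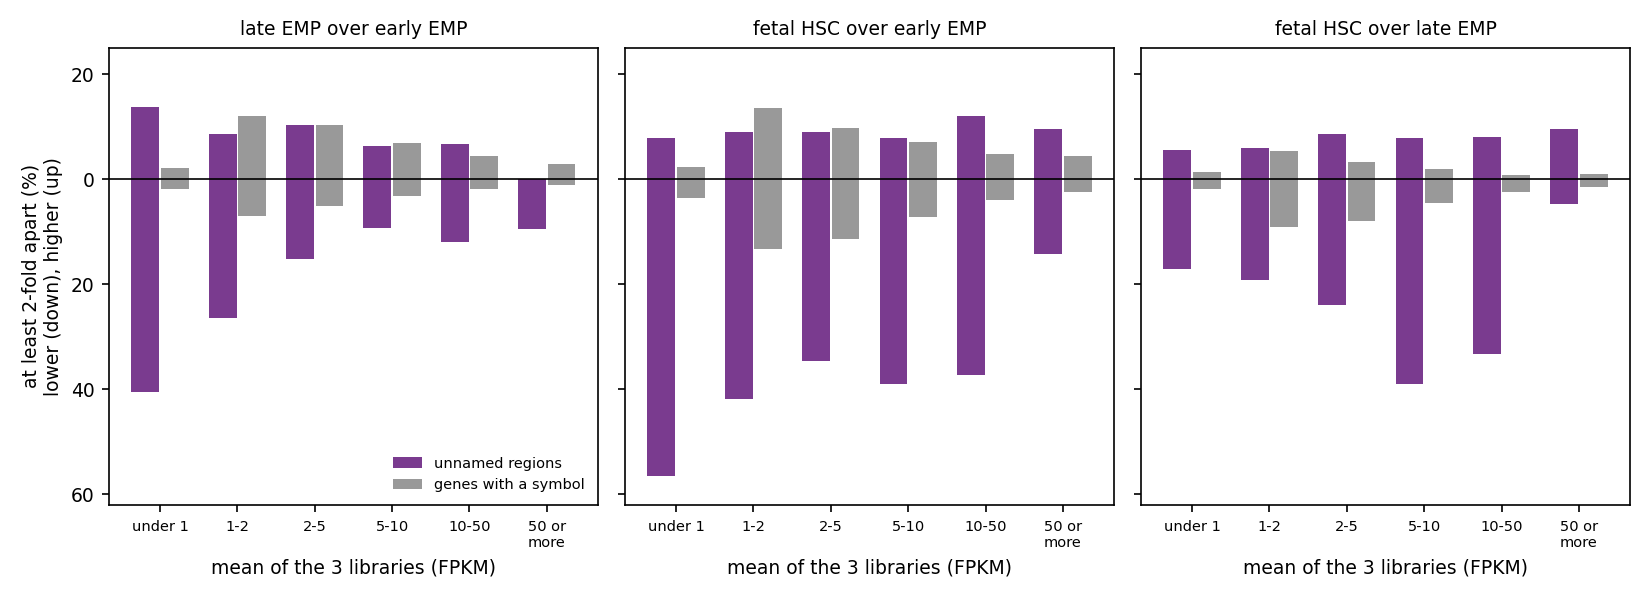
Share of features at least 2-fold apart (%, vertical axis; upward for higher, downward for lower in the first-named library) by the mean FPKM of the 3 libraries (horizontal axis), for unnamed regions and genes with a symbol, 1 panel per comparison. Under 1 FPKM 40.5% of regions are lower in late EMP than in early EMP and 56.5% lower in fetal HSC than in early EMP, and from 10 to under 50 FPKM these shares are 12.0% and 37.3%. Named genes from 10 to under 50 FPKM give 1.80% and 3.91%. In the lowest band the classes are not alike, since 6084 named genes but 181 regions are under 1 FPKM in every library and cannot be called.

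**Figure D4:**
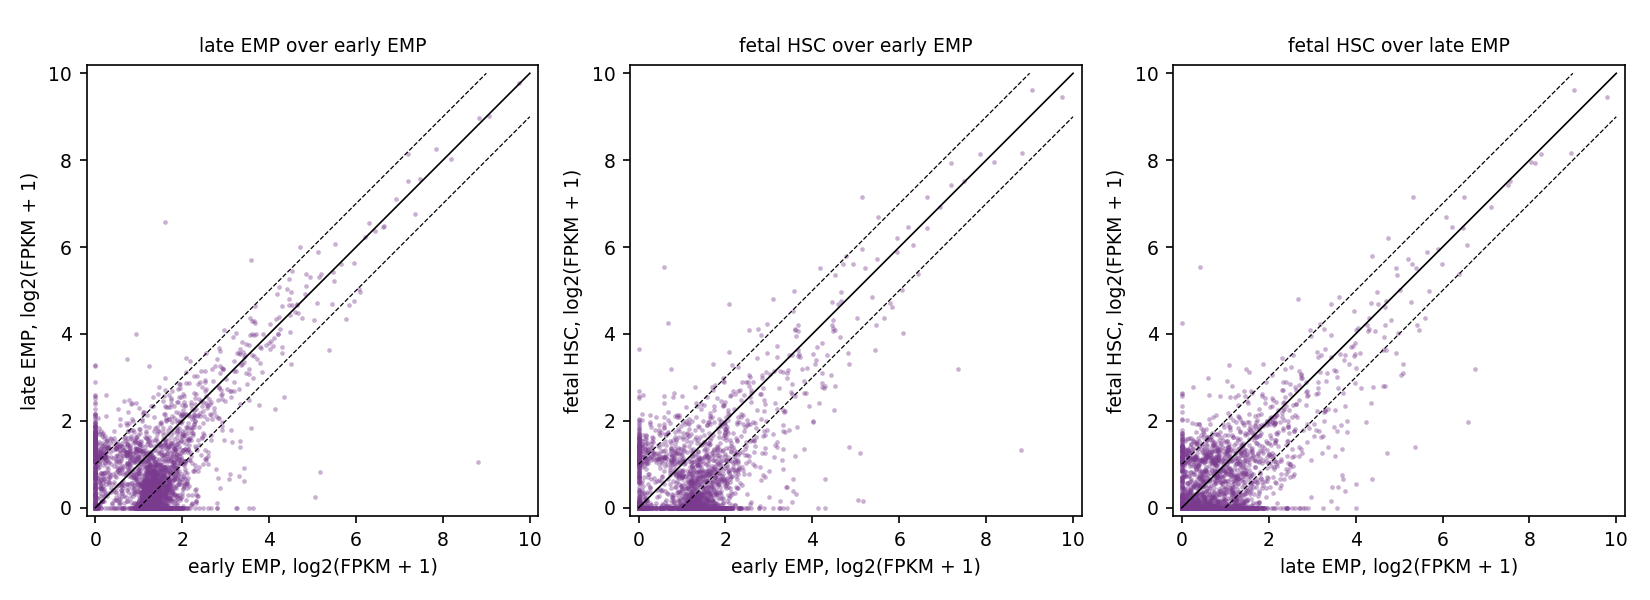
Level of each of the 3064 unnamed regions in 2 libraries, as log2(FPKM + 1) on both axes, 1 point per region and 1 panel per comparison; the solid line marks equal levels and the dashed lines a 2-fold difference. A cloud of regions near 1.37 FPKM, the early EMP median, falls toward 0 in the other libraries, and of the 75 regions with a mean from 10 to under 50 FPKM, 28 lie below and 9 above the dashed lines in fetal HSC over early EMP. Of 3606 named genes in this band, not drawn here, 3.91% were lower and 4.71% higher.

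The regions were uniform in their makeup. Each of the 3064 regions listed exactly 1 transcript, while 49.6% of genes with a symbol did so and named genes listed up to 29. The share was 66.4% among RefSeq long noncoding RNA genes and 68.9% among predicted genes. Transcripts with the same BGI_novel numbering were also listed under 6230 named genes, in which 11023 such transcripts stood beside the RefSeq ones. Values were rarely duplicated. Of the 1280 regions above 0 in all 3 libraries, 6 had all 3 values equal to those of another region, in 3 sets and at no more than 1.50 FPKM.

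The table gives no position for a region, but the transcript numbers ran along the genome. Among 11002 numbered transcripts of named genes placed by RefSeq on GRCm38, 10977 of 11001 consecutive pairs lay on the same chromosome. In 10930 of these the later number belonged to a gene starting at the same base or further along. For 2998 regions the nearest numbers on both sides belonged to 2 different genes of the same chromosome, and the stretch between those genes was used as a bracket. A bracket gives an order and a likely neighbourhood, not a measured position.

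The brackets were wide, with a median of 649 kb between the flanking genes and 25% of them at 204 kb or less. Regions at 1 FPKM or more in all 3 libraries had a median bracket of 406 kb, and those at this level in the early EMP library only had 815 kb. The 29 bracketed regions whose highest level was 50 FPKM or more had a median bracket of 121 kb, against 696 kb for those from 1 to under 2 FPKM. Between these bands the width did not fall steadily. It was 579 kb from 2 to under 5 FPKM, 757 kb from 5 to under 10 and 706 kb from 10 to under 50. For 400 regions the bracket was 100 kb or less, and some of them share a bracket. GENCODE M21 listed at least 1 coding gene inside the bracket for 190 of these regions, at least 1 long noncoding RNA gene for 120 and no gene for 102.

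The 2998 bracketed regions, and 12 more numbered within 1 gene, were spread over the 19 autosomes and the X chromosome, from 11.9 regions per 100 named genes on chromosome 19 to 25.8 on chromosome 18. On each of these chromosomes more regions reached 1 FPKM in the early EMP library than in the late EMP library. These shares ran from 60.9% to 76.2% in the early EMP library and from 24.5% to 41.1% in the late EMP library. In the fetal HSC library they ran from 18.3% to 32.4%.

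Levels of regions bore little relation to those of the named genes that set their brackets. Those flanking genes come from the 6222 placed genes that list a numbered transcript, so nearer genes can lie inside a bracket. The relation of a region to its nearest gene was not measured. Across 2998 regions, Spearman's rho between the mean level of the region and that of the higher flanking gene was 0.04, and across the 411 with brackets of 100 kb or less, overlapping genes included, it was 0.14. For the log2 difference of late EMP over early EMP rho was -0.01 over all brackets and 0.12 over the narrow ones. The points are regions, not replicates, they share the same 3 libraries, and regions within a bracket share the same flanking genes.

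The most abundant regions were high in every library, with 1 exception. BGI_novel_G003015 had the highest mean of all regions, at 860 FPKM in early EMP, 883 in late EMP and 703 in fetal HSC mast cells. It ranked 69th, 60th and 82nd among all rows, and the log2 differences from early EMP were 0.04 for late EMP and -0.29 for fetal HSC. Its number falls after the last placed gene of chromosome 9 and before Pisd-ps3, a pseudogene on a sequence that is not assigned to a chromosome, so no bracket can be given. The other 9 regions numbered in the same stretch were at 3.86 FPKM or less.

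Beside Socs2, a suppressor of cytokine signalling, 3 regions with consecutive numbers were all abundant. They fall between Socs2 and Mrpl42, a mitochondrial ribosomal protein gene, in a bracket of 63.5 kb on chromosome 10 (95417322 to 95480804, GRCm38). BGI_novel_G000308 was at 533 FPKM in early EMP, 521 in late EMP and 788 in fetal HSC mast cells. BGI_novel_G000310 was at 289, 260 and 247 FPKM in that order. BGI_novel_G000309, which the naming rule did not select and which is given because it lies between them, was at 44.1, 36.2 and 52.2 FPKM. All 3 were within 2-fold between libraries, and Socs2 itself was at 313, 202 and 235 FPKM. GENCODE lists 4 genes inside this bracket, none of them coding and 2 of them long noncoding RNA genes. Of the 31 bracketed regions chosen by the naming rule, 28 had at least 1 GENCODE coding gene inside the bracket and 3 had none, 2 of these being the regions beside Socs2.

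BGI_novel_G002905 was at 453 FPKM in early EMP, 499 in late EMP and 288 in fetal HSC mast cells. Its bracket runs from Ncam1, a neural cell adhesion molecule, to Pts, an enzyme of tetrahydrobiopterin synthesis, on chromosome 9 (49799394 to 50521616). BGI_novel_G000559 was at 230, 307 and 281 FPKM, in the 915 kb between Vsnl1 and 4921511I17Rik on chromosome 12. Both of these flanking genes were at 1.78 FPKM or less in each library. BGI_novel_G002737 was at 145 FPKM in early EMP cells against 280 and 244 in the late EMP and fetal HSC libraries, log2 differences of 0.94 and 0.74 that stay under 2-fold. It falls between Crtc1, a coactivator of CREB, and Kxd1 on chromosome 8.

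BGI_novel_G002606 was at 146, 182 and 170 FPKM for early EMP, late EMP and fetal HSC. Its bracket of 107 kb on chromosome 7 runs from Calca, which encodes calcitonin and the neuropeptide CGRP, to Insc. BGI_novel_G000250 was at 121, 138 and 120 FPKM between P4ha1, a collagen prolyl hydroxylase subunit, and Pla2g12b on chromosome 10. Both regions were within 2-fold between libraries.

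Some regions barely varied. Of 59 regions at 10 FPKM or more in each library, 39 had a lowest level of at least 50% of the highest. The smallest coefficient of variation over the 3 libraries was that of BGI_novel_G002270, 2.85%, at 178, 188 and 182 FPKM, between Rilpl2 and Eif2b1 on chromosome 5. BGI_novel_G001065 followed with 3.91% at 24.1, 24.9 and 26.0 FPKM, and BGI_novel_G001219 with 6.22% at 23.1, 21.8 and 24.7 FPKM.

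A few abundant regions were read almost entirely in the early EMP library. BGI_novel_G002124 was at 448 FPKM there, where it ranked 123rd among all rows, and at 1.09 FPKM in the late EMP and 1.50 FPKM in the fetal HSC library. The log2 differences were -7.75 and -7.49. Its bracket on chromosome 5 (5694650 to 8072346) runs from Steap2, a metalloreductase, to Adam22, a neuronal membrane protein, and both flanking genes were at 0.34 FPKM or less in each library. BGI_novel_G001987 was at 35.0 FPKM in early EMP cells against 0.78 and 0.12, in the 5705 kb between Astn2 and Tle1 on chromosome 4. BGI_novel_G001655 was at 32.4 FPKM against 0.19 and 0.13, in the 3141 kb between Nckap1 and Itgav, the integrin alpha V gene, on chromosome 2. BGI_novel_G000946 and BGI_novel_G000825 were at 11.3 and 10.5 FPKM in the early EMP library, listed at 0 in the late EMP library and at 0.25 and 0.09 FPKM in the fetal HSC library.

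Other regions stood out in the late EMP library. BGI_novel_G003053 was at 95.2 FPKM there against 2.06 in the early EMP and 2.91 in the fetal HSC library, log2 differences of 4.97 over early EMP and -4.62 for fetal HSC over late EMP. It falls between Mbnl3, a splicing regulator, and Mospd1 on the X chromosome (51205991 to 53344593). BGI_novel_G002787 was at 15.0 FPKM against 0.90 and 0.47, between Zdhhc1 and Ctcf, the gene of the chromatin boundary factor, on chromosome 8. BGI_novel_G002555 was at 50.7 FPKM in late EMP cells, against 10.9 in early EMP and 30.9 in fetal HSC cells, a log2 difference of 2.12 over early EMP. It falls in the 12.5 kb between Pde8a, a cyclic AMP phosphodiesterase, and Cpeb1 on chromosome 7.

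In the fetal HSC library BGI_novel_G000178 was at 45.4 FPKM, against 0.50 in the early EMP and 0.33 in the late EMP library. The log2 differences were 4.95 and 5.12. Its bracket on chromosome 1 (178252599 to 178321107) runs from Desi2 to Hnrnpu, an RNA-binding protein gene, and is the other one without a coding gene of GENCODE. BGI_novel_G003102 was at 18.0 FPKM in the fetal HSC library, at 0.59 in the early EMP library and listed at 0 in the late EMP library, in a bracket on the X chromosome. BGI_novel_G000786 was already at 34.6 and 38.9 FPKM in the EMP libraries and reached 141 FPKM in the fetal HSC library, a log2 difference of 1.84 over late EMP. BGI_novel_G002843 was at 7.54, 5.43 and 27.0 FPKM, and BGI_novel_G001352 at 3.25, 9.88 and 24.8 FPKM in the order early EMP, late EMP and fetal HSC.

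Several regions were present in both EMP libraries and low in the fetal HSC library. BGI_novel_G000108 was at 27.9 FPKM in early EMP cells and 40.6 in the late EMP library, and at 1.65 in the fetal HSC library. BGI_novel_G000583 was at 10.8, 19.7 and 0.58 FPKM. BGI_novel_G002590 was at 18.5 and 10.8 FPKM in the EMP libraries and listed at 0 in the fetal HSC library. It falls in the 863 kb between Trim30d and Fam160a2 on chromosome 7. BGI_novel_G003081 at 16.5 and 3.80 FPKM and BGI_novel_G003045 at 8.48 and 15.2 FPKM, both bracketed on the X chromosome, were listed at 0 there too. BGI_novel_G001582, picked after its values were seen, was at 162 and 107 FPKM in the EMP libraries and 8.11 in the fetal HSC library, between Tsc1 and Ttf1 on chromosome 2.

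The reverse was seen in BGI_novel_G002338, listed at 0 in the early EMP library and at 8.76 and 11.5 FPKM in the late EMP and fetal HSC libraries. BGI_novel_G000542 was listed at 0 in the early EMP library, and was at 2.03 FPKM in the late EMP and 5.48 in the fetal HSC library. BGI_novel_G001332 was listed at 0 in the late EMP library only, against 5.02 and 5.25 FPKM in the early EMP and fetal HSC libraries. It falls between Eif2ak2, the antiviral kinase PKR, and Cebpzos on chromosome 17.

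**Figure D5:**
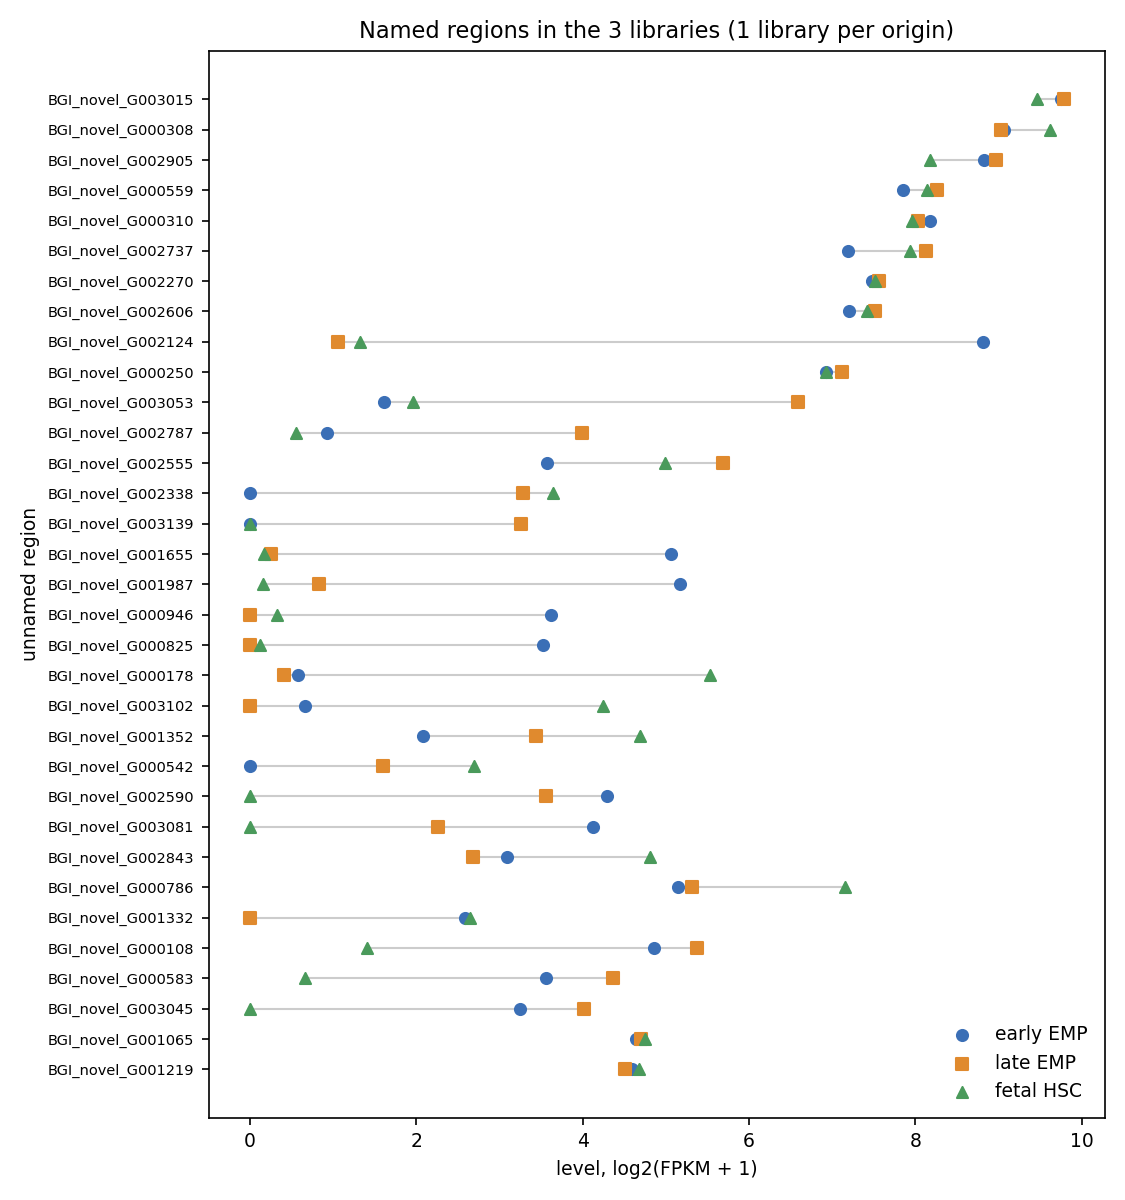
Level of the 33 regions chosen by the naming rule in each library, as log2(FPKM + 1) on the horizontal axis, 1 marker per library and a grey line spanning the 3; a marker at 0 means listed at 0. The markers of BGI_novel_G002270 nearly coincide at 178, 188 and 182 FPKM, while those of BGI_novel_G002124 span 1.09 to 448 FPKM.

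Levels far above both other libraries were counted in the same way for regions and for named genes. Of 104 regions at 10 FPKM or more in the early EMP library, 4 were at least 10-fold above both other libraries on the FPKM + 1 scale, as were 8 of 4907 named genes. In the late EMP library 1 of 101 regions and 2 of 5058 named genes were so. In the fetal HSC library the numbers were 2 of 76 regions and 3 of 4777 named genes.

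The 3 libraries also differ in RNA from the sex chromosomes. Xist, made from the inactive X chromosome, was at 25.6 FPKM in early EMP, 0.53 in late EMP and 52.0 in fetal HSC mast cells. Ddx3y on the Y chromosome was at 20.7, 38.5 and 0.32 FPKM in the same order. These levels differ in all 3 comparisons, and the sex of the animals cannot be told apart from the origin of the cells in any of them.

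Of the unnamed regions, 5 are numbered after Ddx3y and before Erdr1, the last numbered gene, which RefSeq places on the X chromosome. Each of them was highest in the late EMP library, lower in the early EMP library, and no higher than that in the fetal HSC library, the order of Ddx3y. BGI_novel_G003143 was at 6.22 FPKM in early EMP, 11.8 in late EMP and 0.68 in fetal HSC mast cells. BGI_novel_G003144 was at 2.04 and 5.52 FPKM in the EMP libraries and BGI_novel_G003146 at 2.73 and 5.60, and both were listed at 0 in the fetal HSC library. BGI_novel_G003142 at 1.80 FPKM and BGI_novel_G003145 at 4.24 FPKM were read in the late EMP library only. These regions were singled out after their values were seen. Over all 3064 regions, 414, or 13.5%, were at 1 FPKM or more in the late EMP library, lower in the early EMP library, and under 1 FPKM and no higher than the early EMP level in the fetal HSC library.

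BGI_novel_G003139, at 8.54 FPKM in the late EMP library and listed at 0 in the other 2, is numbered between Hccs on the X chromosome and Uty on the Y chromosome. Its neighbours in number BGI_novel_G003140 and BGI_novel_G003141 did not follow it, at 21.0, 37.5 and 25.9 FPKM and at 21.1, 27.1 and 18.9 FPKM in the order early EMP, late EMP and fetal HSC.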

How the data were processed

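Per the labels' protocols, TRIzol was used on the sorted cells and the RNA was read at BGI (Illumina HiSeq). Per the file headers, the 3 libraries share 1 deposited table of FPKM values. The submitters' processing notes name Bowtie2, RSEM, mm10 and GRCm38. Each column was matched to its library through the sample's description. The early EMP column is headed ctrl, a word that only the early EMP sample's description carries, and its match rests on that word. Since FPKM is a share, very abundant genes move all other values, and a listed 0 can be a failed estimate.

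The members and lists were chosen with earlier results of these data known. Regions are rows whose identifier begins with BGI_novel. Predicted genes have symbols of the form Gm plus digits or ending in Rik. RefSeq long noncoding RNA genes were added as a comparison after the data were seen. Of 17613 named genes 17569 matched RefSeq of GRCm38.p6, which gave chromosomes, coordinates and classes; genes inside brackets come from GENCODE M21 (GRCm38). Differences used a pseudocount of 1 FPKM and no filter. Named regions followed a rule: the 10 highest by mean; per comparison and direction, the 3 largest differences at 10 FPKM or more and above 0 in both libraries, and the 2 highest listed at 0 in the other; and the 3 lowest coefficients of variation. The rule's last part, most transcripts, chose none because each region lists 1. Counting steps were tested on simulated data, in which 2-fold calls were scored only among abundant rows, so calls on low regions were not covered. Python 3.11.15, numpy 2.4.6, pandas 2.3.3 and matplotlib 3.10.9 were used.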

Additional observations from a re-analysis of the deposited data

How the results depend on the processing

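No paired analysis was possible because each group has 1 library, and no replicate was left out. Each count of regions stayed within 1.5 times its value when libraries were rescaled, by a common total, by size factors or by a total that leaves out the 50 most abundant genes. So did the counts with 1 region kept of each set with identical values, and without regions numbered at the X and Y chromosomes, 2 restrictions chosen after the data were seen.

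The level counted as present mattered, and the early EMP library kept the most regions at each. Regions numbered 754, 453 and 341 at 2 FPKM and 188, 173 and 139 at 5 FPKM for early EMP, late EMP and fetal HSC, and 2419 and 1620 above 0 in the last 2. Regions in all 3 libraries numbered 1280 above 0, 582 at 0.5, 203 at 2 and 95 at 5 FPKM. Those in early EMP only numbered 454 above 0, 416 at 2 and 43 at 5 FPKM, those in late EMP only 230, 108 and 25, and those in fetal HSC only 69, 73 and 19, with 169 at 0.5 FPKM. Without the 10 most abundant regions the shares of summed FPKM were 1.10%, 0.871% and 0.620%, and with the 50 most abundant genes out of the denominator 3.38%, 2.70% and 2.22%.

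In the counts of differing regions, lower outnumbered higher in every comparison and setting run. Higher and lower regions follow in the order of the report, late against early EMP, then fetal HSC against each EMP library, early first. They numbered 624 and 1625, 408 (lower stayed within 1.5 times), and 411 and 1362 with a pseudocount of 0.1 FPKM. With 5 FPKM they were 10 and 28, 12 and 54, and 12 and 43. With a mean of at least 1 FPKM they were 73 and 173, 78 and 328, and 61 and 195, and with at least 5 FPKM 9 and 17, 16 and 56, and 13 and 51. At 4-fold they were 21 and 38, 13 and 81, and 13 and 39. Most calls thus rest on regions of a few FPKM, for which the fragments behind a value are not known. At 4-fold all 20677 rows gave 144 and 87, 162 and 171, and 44 and 82. Genes with a symbol alone gave 123 and 49, 149 and 90, and 31 and 43. Among these genes too, lower outnumbered higher in fetal HSC against late EMP. For the other settings of this paragraph no count over all rows is given.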
